A study of Mus musculus with 49 samples.

Results

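The genes examined here encode the RNA-binding proteins that package newly made transcripts (the hnRNP proteins) and the core parts of the spliceosome, read in livers and liver tumors of mice with a human MET transgene. A list of 38 genes was taken by gene symbol, with older symbols such as Hnrpm allowed. Of these, 36 carried a symbol on the array, and Snrpf and U2af1 were not analysed here. For 17 genes the array held 1 probe set and for 19 it held several, 61 probe sets in all. Where there were several, the probe set with the largest mean across all 49 samples stands for the gene, and it is called the brightest below. The 36 genes stand among 21517 named genes and 43681 probe sets.

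Total liver RNA was hybridized to a custom Affymetrix array. Every mouse had an FVB background. Tumors (Tum) and the livers labelled ad-Liv and dis-Liv, read here as adjacent to and distant from a tumor although the labels do not spell this out, came from the same 7 mice at 14 weeks of age. These mice carried LAP-tTA, in which a hepatocyte promoter drives a tetracycline transactivator, together with Tre-c-Met, a human MET gene under the operator that this transactivator binds. Each mouse gave 2 tumors, a and b, 1 ad-Liv and 1 dis-Liv sample. The livers set against them were 7 labelled FVB-WT at 14 weeks, although the methods describe the 14-week controls as LAP-tTA mice. The younger groups were 7 TRE-met livers at 6 weeks and 7 LAP-tTA livers at 7 weeks. The labels name only Tre-c-Met for TRE-met mice, whereas the methods give them both transgenes, 1 copy of each. In the methods, the LAP-tTA controls carried 2 copies of LAP-tTA. Snrnp25, described under other observations, had means of -0.78 in TRE-met, -0.65 in FVB-WT, 0.75 in dis-Liv and 1.84 in LAP-tTA livers. Which transgenes the TRE-met mice carried was not tested. In the TRE-met and LAP-tTA pair a week of age goes with genotype and cannot be told apart from it, and in the FVB-WT and LAP-tTA pair so does the larger age gap. The age field of TRE-met sample 1 reads 14 weeks and its title 6 weeks.

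Splicing removes introns from a transcript while it is being made. The U1 particle recognizes the start of the intron, U2AF and U2 recognize its branch site and end, and the U4, U5 and U6 particles then join so that a catalytic center of U2 and U6 RNA can form. Each of the U1, U2, U4 and U5 RNAs is held in a ring of Sm proteins, and U6 RNA in a ring of LSm proteins. The hnRNP proteins coat the transcript and shift the choice of splice sites, often against the SR proteins. Several of them also bind finished messages: HNRNPU and DHX9 have been described, in human cells, in a complex on the coding region of MYC mRNA. Dividing and growing cells make more of many of these proteins.

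Promoter sequence was set beside the members as a description, and whether the members move together was not tested. The table of RefSeq promoters on mouse assembly GRCm38.p6, 300 bases around each gene start, held 46 promoters of 32 of the 36 genes. Promoters of the same gene were counted separately. Motifs were searched on both strands as exact letters. The ETS motif CCGGAAG was in 16 of the 46 promoters (34.8%), against 8.86% of all 32851 promoters. The CCAAT box (CCAAT) was in 23 (50%), against 37.4% of all promoters. The E-box CACGTG, the letters that MYC binds, was in 5 (10.9%), against 7.15%. The NRF1 core GCGCATGC was in 2 (4.35%), against 2.71%, and TATAAA in 3 (6.52%), against 13.6%. A match is a description of the letters and not a bound site. Promoters are shown for 3 genes that were higher in tumors (Hnrnpa1, Prpf19 and Dhx9), for Lsm6, which was lower, and for Hnrnpm, which holds an E-box. In those shown no match overlaps another. Capitals mark the matches: CCAAT on either strand for Hnrnpa1 (chr15:103240147-103240446, plus strand) and Lsm6 (chr8:78821103-78821402, minus strand), CCAAT and ETS for Prpf19 (chr19:10894981-10895280, plus strand, 1 of its promoters), ETS for Dhx9 (chr1:153487611-153487910, minus strand), and E-box and TATAAA for Hnrnpm (chr17:33685409-33685708, minus strand).
Hnrnpa1: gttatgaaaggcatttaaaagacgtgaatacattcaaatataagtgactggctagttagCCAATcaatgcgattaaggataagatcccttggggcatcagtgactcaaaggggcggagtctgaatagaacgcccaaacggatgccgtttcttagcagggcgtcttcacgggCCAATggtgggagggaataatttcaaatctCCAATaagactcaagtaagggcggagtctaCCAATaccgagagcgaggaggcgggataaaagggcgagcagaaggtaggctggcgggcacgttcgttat
Prpf19: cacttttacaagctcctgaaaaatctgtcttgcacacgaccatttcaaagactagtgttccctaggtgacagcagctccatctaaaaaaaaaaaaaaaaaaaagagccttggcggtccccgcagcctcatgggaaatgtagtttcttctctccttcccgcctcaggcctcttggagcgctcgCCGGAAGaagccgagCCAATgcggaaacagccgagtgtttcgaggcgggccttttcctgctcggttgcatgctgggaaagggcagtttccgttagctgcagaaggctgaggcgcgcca
Dhx9: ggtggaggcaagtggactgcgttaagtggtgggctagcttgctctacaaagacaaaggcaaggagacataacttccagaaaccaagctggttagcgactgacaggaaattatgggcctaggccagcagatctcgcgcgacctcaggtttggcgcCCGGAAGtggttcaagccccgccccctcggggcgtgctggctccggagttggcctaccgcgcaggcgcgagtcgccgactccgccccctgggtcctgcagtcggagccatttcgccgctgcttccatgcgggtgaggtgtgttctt
Hnrnpm: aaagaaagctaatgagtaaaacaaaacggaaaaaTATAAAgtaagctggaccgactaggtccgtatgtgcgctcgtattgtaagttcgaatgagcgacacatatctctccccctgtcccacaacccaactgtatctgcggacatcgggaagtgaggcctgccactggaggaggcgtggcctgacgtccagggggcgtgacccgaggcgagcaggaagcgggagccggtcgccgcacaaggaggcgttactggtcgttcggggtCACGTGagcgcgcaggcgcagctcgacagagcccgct
Lsm6: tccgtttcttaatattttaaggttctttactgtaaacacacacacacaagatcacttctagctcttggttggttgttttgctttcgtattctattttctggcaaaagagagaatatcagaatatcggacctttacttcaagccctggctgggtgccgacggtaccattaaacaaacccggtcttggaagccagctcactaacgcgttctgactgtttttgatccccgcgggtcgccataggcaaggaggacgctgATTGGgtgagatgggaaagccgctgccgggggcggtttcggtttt

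Values are log2 of the deposited intensity, a linear scale that the authors obtained by RMA and on which every sample averages 1. Levels are compared between groups for a single probe set and never between probe sets. All 36 brightest probe sets lay in the upper part of the array, at the 75.9 percentile of mean level or above. Both tumors of a mouse were averaged for tests, so that n = 7 mice in every group, and a gene was called at an adjusted p under 0.05 from limma over all probe sets. The hepatocyte marker Alb lay between 6.85 and 7.17 in every sample. The summed hepatocyte markers did differ, at 199.5 to 311 in tumors and 315 to 339 in FVB-WT livers. Other cell types moved with the groups: 4 of 5 proliferation markers were higher in tumors than in FVB-WT livers and 5 of 6 Kupffer cell markers and 4 of 6 hepatocyte markers were lower. The summed proliferation markers spanned 2.49 to 10.1 in tumors and 0.73 to 1.12 in FVB-WT livers. In bulk tissue, fewer cells of a type and less RNA per cell cannot be told apart, and the part of these shifts in the results below was not tested. Tumor 1b stood apart, with the lowest summed hepatocyte markers (199.5, against up to 311 in the other tumors) and the highest lymphocyte, neutrophil, endothelium, stellate cell, cholangiocyte, proliferation and erythroid sums. FVB-WT samples 5 and 7 had the most Cpa1, a pancreas marker (2.97 and -0.71, against -2.85 to -2.11 in the other 5). The summed pancreas markers set only sample 5 apart (25.9). Sample 7 had 9.10, within the 2.76 to 9.20 of the other 5. TRE-met samples 1, 2, 3 and 5 also stood apart from samples 4, 6 and 7. Results that rest on these samples are given without them as well.

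Tumors had a higher signal than FVB-WT livers for many of these genes. Of the 36 members, 17 were higher in tumors, 5 were lower and 14 were not called, where 13.4% of all probe sets were called higher and 15.8% lower. Among the 21840 probe sets with a mean above the median of all, where all 36 members lie, 22.8% were called higher and 21.6% lower. The median member differed by 0.20 on the log2 scale, against -0.05 for all probe sets, and by 0.13 with quantile normalization or with tumor a of each mouse alone. By role, 7 of 11 hnRNP genes were higher and 1 lower, 2 of 6 Sm genes were higher and none lower, 4 of 7 genes of SF3a, SF3b and U2AF were higher and 1 lower, and 1 of 6 LSm genes was higher and 2 lower.

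Hnrnpa1, an hnRNP protein that represses splice sites, changed most. Its level was 0.76, 1.26 and 2.53 in tumors (lowest, median and highest), against 0.03, 0.14 and 0.30 in FVB-WT livers. Every tumor lay above every FVB-WT liver. The means were 1.31 ± 0.33 in tumors and 0.15 ± 0.10 in FVB-WT livers (SD, n = 7 each), a 2.23-fold difference (log2 1.16, SE 0.12, adjusted p = 1.62e-06).

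Other hnRNP genes changed by less. Hnrnph1, whose protein binds runs of G in transcripts, stood at 1.69, 2.36 and 2.85 in tumors and at 1.51, 1.56 and 1.90 in FVB-WT livers, 1.59-fold higher (log2 0.67, SE 0.11, adjusted p = 0.000208). Its groups overlapped only at their edges, where both tumors of mouse 5 lay at 1.69 and 1.70. Hnrnpk, which binds C-rich RNA, was 3.39, 3.48 and 3.64 in tumors and 2.96, 3.04 and 3.12 in FVB-WT livers, a 1.37-fold difference (log2 0.46, SE 0.05, adjusted p = 3.35e-06). Its tumors had the smallest SD over mice of the hnRNP genes (0.06) and did not overlap the FVB-WT livers. Hnrnpu, which binds RNA and the nuclear matrix, was 2.21, 2.53 and 2.84 in tumors against 2.08, 2.13 and 2.29 in FVB-WT livers (log2 0.35, SE 0.07, adjusted p = 0.0011). Hnrnpm was 1.55, 1.75 and 2.22 in tumors against 1.39, 1.53 and 1.66 in FVB-WT livers (log2 0.24, SE 0.06, adjusted p = 0.00466). In both of these genes the groups overlapped. Hnrnpf (log2 0.33) and Hnrnpr (0.24) were also called higher, and neither passed without FVB-WT samples 5 and 7, where the differences were of like size (0.29, adjusted p = 0.0949, and 0.25, adjusted p = 0.0542). Hnrnpf also missed the threshold without tumor 1b (0.29, adjusted p = 0.0635), and Hnrnpr without FVB-WT samples 1 and 2 (0.21, adjusted p = 0.104), which had more Dbp, a clock output gene, than the other 5 (2.67 and 2.91 against 0.22 to 0.73).

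Hnrnpc was the only hnRNP gene called lower. Its protein forms tetramers on U-rich stretches of nascent transcripts. It read 1.35, 1.61 and 1.90 in tumors and 2.04, 2.14 and 2.25 in FVB-WT livers. Here too the groups did not overlap, with every tumor below every FVB-WT liver, a 1.45-fold difference (log2 -0.54, SE 0.07, adjusted p = 2.92e-05). Hnrnpa2b1, Hnrnpd and Hnrnpl were not called, at log2 -0.18, 0.14 and 0.03.

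**Figure D1:**
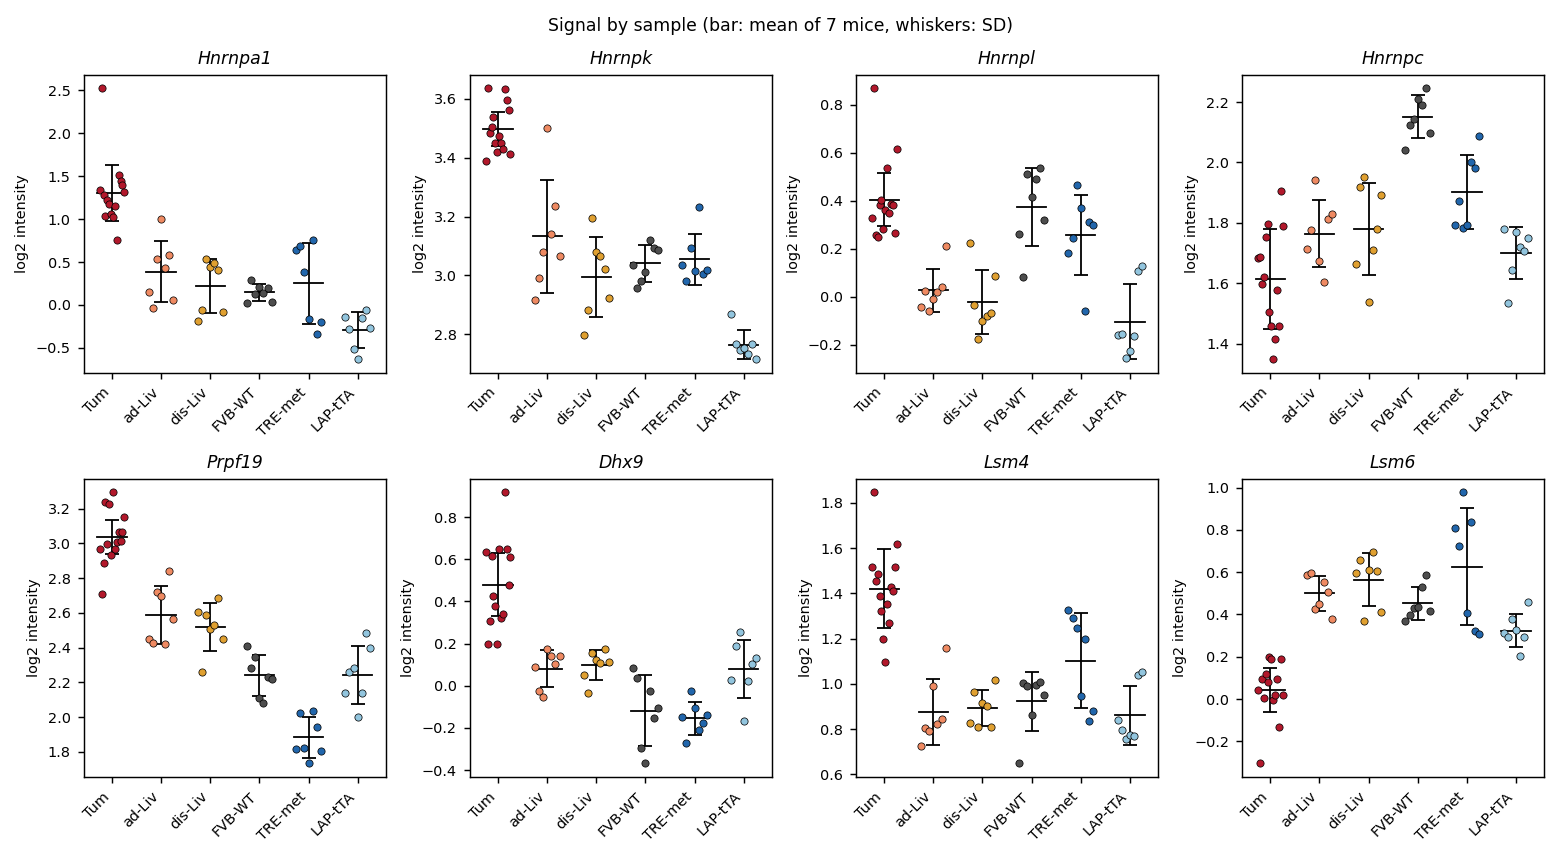
Log2 intensity (vertical axis) of the brightest probe set of 8 genes in each sample, by group (horizontal axis). Points are samples, with 14 tumors and 7 livers in each other group, and bars give the mean of 7 mice ± SD. Hnrnpa1 and Prpf19 are higher in every tumor than in any FVB-WT liver, and Hnrnpc and Lsm6 are lower in every tumor.

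In the snRNP rings the direction differed between genes. Snrpa1, the U2 protein that pairs with U2B'' on U2 RNA, was -0.57, -0.37 and 0.07 in tumors and -0.94, -0.79 and -0.62 in FVB-WT livers, without overlap (1.39-fold, log2 0.48, SE 0.09, adjusted p = 0.000954). Of the Sm ring, Snrpe was 1.96, 2.14 and 2.50 in tumors against 1.73, 1.76 and 2.05 in FVB-WT livers (log2 0.33, SE 0.07, adjusted p = 0.00135). Snrpd1 was -0.70, -0.30 and -0.03 in tumors against -0.84, -0.65 and -0.56 in FVB-WT livers (log2 0.32, SE 0.08, adjusted p = 0.00952). Tumors overlapped FVB-WT livers in both Sm genes. Snrpb, Snrpd2, Snrpd3 and Snrpg were not called, with log2 differences between -0.15 and 0.20.

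The LSm ring split. Lsm4 was 1.10, 1.42 and 1.85 in tumors and 0.65, 0.99 and 1.01 in FVB-WT livers (1.41-fold higher, log2 0.50, SE 0.08, adjusted p = 0.000219). Lsm6 was -0.30, 0.06 and 0.20 in tumors and 0.37, 0.43 and 0.59 in FVB-WT livers (1.33-fold lower, log2 -0.41, SE 0.06, adjusted p = 6.33e-05). Neither gene's groups overlapped, and the difference had opposite signs for 2 subunits of the same ring. Lsm7 was 0.93, 1.16 and 1.37 in tumors and 1.28, 1.44 and 1.45 in FVB-WT livers (log2 -0.27, SE 0.06, adjusted p = 0.00167), with overlap. Lsm2 was not called, at -0.95, -0.66 and -0.14 in tumors and -0.74, -0.48 and -0.32 in FVB-WT livers (log2 -0.13, 95% interval -0.33 to 0.07, adjusted p = 0.324).

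Among the proteins of the branch site, Sf3b3 was higher by 0.33, Sf3a1 by 0.30, Sf3b1 by 0.21 and U2af2, which binds the pyrimidine tract, by 0.20 on the log2 scale, while Sf3a2 fell by 0.27. Sf3b1 had an adjusted p of 0.0493 and missed the threshold without tumor 1b (0.18), without FVB-WT samples 5 and 7 (0.22) and without FVB-WT samples 1 and 2 (0.22), as did U2af2 without FVB-WT samples 5 and 7 (0.17). Lsm3 became a call without FVB-WT samples 1 and 2 (0.35, adjusted p = 0.00254, against 0.23 with them). The calls of Sf3a1, Sf3a2 and Sf3b3 against FVB-WT livers held in these fits.

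The 3 genes of the helicase and catalytic group all changed. Prpf19, the ubiquitin ligase of the complex that activates the spliceosome, was 2.71, 3.01 and 3.29 in tumors and 2.08, 2.23 and 2.41 in FVB-WT livers, 1.74-fold higher (log2 0.80, SE 0.07, adjusted p = 1.33e-07). Dhx9, an RNA helicase, was 0.20, 0.45 and 0.92 in tumors and -0.37, -0.11 and 0.08 in FVB-WT livers, 1.51-fold higher (log2 0.60, SE 0.08, adjusted p = 4.66e-05). Both were without overlap. Prpf8, the scaffold of the catalytic center, was 1.43, 1.83 and 2.10 in tumors and 2.0, 2.17 and 2.42 in FVB-WT livers, 1.31-fold lower (log2 -0.39, SE 0.08, adjusted p = 0.000866), with overlap.

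Next, tumors were set against liver of the same mice. Against dis-Liv, 16 members were higher in tumors and 3 lower, where 13% of all probe sets were called higher and 14% lower. Against ad-Liv, 18 were higher and 2 lower, where the shares were 12.8% and 23.5%. Among those 21840 probe sets the shares called higher were 22.0% against dis-Liv and 22.5% against ad-Liv. The median member differed by 0.18 and 0.19 on the log2 scale, and the median probe set by -0.05 and -0.10. With sample medians made equal, the calls against ad-Liv over all probe sets were 7191 higher and 3821 lower in place of 5578 and 10249, and with quantile normalization 5045 and 5929. These 3 comparisons share the tumor samples, so their calls are not independent. By count and by the brightest probe set, 13 members were called higher in all 3 (Dhx9, Hnrnpa1, Hnrnph1, Hnrnpk, Hnrnpu, Lsm4, Prpf19, Sf3a1, Sf3b1, Sf3b3, Snrpa1, Snrpd1 and Snrpe), 2 lower in all 3 (Lsm6 and Sf3a2) and 10 in none (Hnrnpa2b1, Hnrnpd, Lsm2, Lsm5, Sf3a3, Sf3b2, Snrpa, Snrpb, Snrpd2 and Snrpd3). The share of all probe sets called in all 3 was not counted, so these joint counts have no background beside them.

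**Figure D2:**
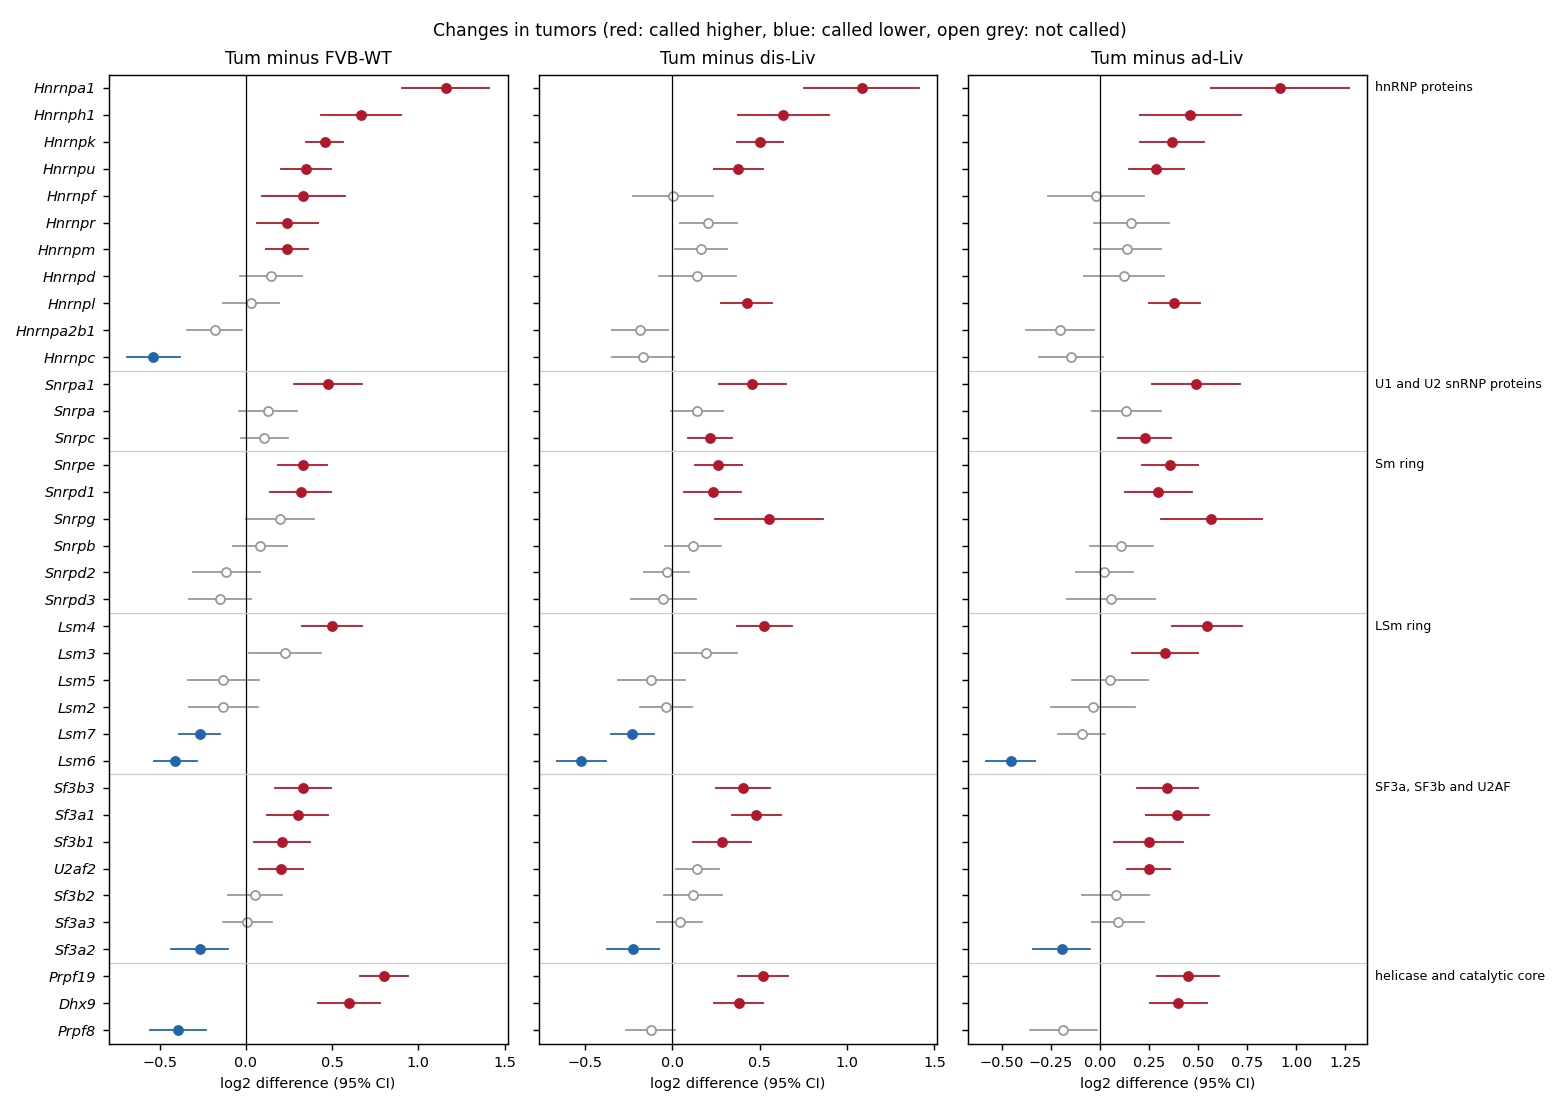
Log2 difference with its 95% interval (horizontal axis) of tumors minus FVB-WT, dis-Liv and ad-Liv for the 36 members (vertical axis, grouped by role). Red points were called higher, blue points lower and open grey points were not called. Hnrnpa1 lies farthest to the right in each panel, and Hnrnpc lies left of 0 with a call only against FVB-WT livers.

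Each of the 7 mice had a higher tumor mean than dis-Liv for Hnrnpa1, Hnrnph1, Hnrnpk, Hnrnpl, Hnrnpu, Prpf19 and Dhx9. Hnrnpa1 in dis-Liv was -0.19, 0.41 and 0.54, below every tumor (2.12-fold, log2 1.08, SE 0.15, adjusted p = 7.09e-05). In ad-Liv it was -0.03, 0.43 and 1.0, and the highest ad-Liv sample overlapped the tumors (1.89-fold, log2 0.92, SE 0.17, adjusted p = 0.000702). Prpf19 was 2.26, 2.53 and 2.69 in dis-Liv, below every tumor (log2 0.52, SE 0.07, adjusted p = 2.95e-05). In ad-Liv it was 2.42, 2.57 and 2.84 (log2 0.45, SE 0.07, adjusted p = 0.000386).

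Hnrnpl, which binds CA repeats, was called against the livers of the same mice but not against FVB-WT livers. It was 0.25, 0.37 and 0.87 in tumors, -0.18, -0.07 and 0.22 in dis-Liv and -0.06, 0.02 and 0.21 in ad-Liv. Every tumor exceeded every dis-Liv and ad-Liv sample (log2 0.43, SE 0.07, adjusted p = 0.000221 against dis-Liv and log2 0.38, SE 0.06, adjusted p = 0.000278 against ad-Liv). Snrpg, an Sm protein, was 0.89, 1.19 and 2.38 in tumors, 0.18, 0.88 and 1.08 in dis-Liv and 0.30, 0.69 and 1.02 in ad-Liv. Its groups overlapped (log2 0.55, SE 0.15, adjusted p = 0.00989 against dis-Liv and log2 0.57, SE 0.12, adjusted p = 0.00258 against ad-Liv). Snrpc, the U1 protein that steadies pairing with the start of the intron, was higher by 0.22 against dis-Liv and 0.23 against ad-Liv, and Lsm3 was called only against ad-Liv (log2 0.33).

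Lsm6 was lower in the tumors of all 7 mice than in their own dis-Liv and ad-Liv, with no overlap. It was 0.37, 0.60 and 0.70 in dis-Liv and 0.38, 0.51 and 0.60 in ad-Liv (log2 -0.52, SE 0.07, adjusted p = 2.26e-05 and log2 -0.46, SE 0.06, adjusted p = 4.25e-05). Lsm4 was higher in all 7 mice (log2 0.53 against dis-Liv and 0.54 against ad-Liv), so the opposite signs within the LSm ring held against all 3 livers. Hnrnpc and Prpf8, lower against FVB-WT livers, were not called against dis-Liv (log2 -0.16 and -0.12) or ad-Liv (-0.15 and -0.19). Hnrnpm was not called either, at log2 0.17 (95% interval 0.02 to 0.32) against dis-Liv and 0.14 (-0.03 to 0.31) against ad-Liv.

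With the mouse as a replicate block, 17 of the 19 calls against dis-Liv and 19 of the 20 against ad-Liv were kept. Snrpd1 (adjusted p = 0.0657) and Sf3a2 (adjusted p = 0.0538) lost their calls against dis-Liv, where Hnrnpa2b1 became a call (log2 -0.18, adjusted p = 0.0478). Sf3b1 (adjusted p = 0.0572) lost its call against ad-Liv.

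The array reads 19 members with more than 1 probe set, and the probe sets of a gene did not always give the same result. In tumors against FVB-WT livers, 12 of these 19 were higher and 2 lower by the brightest probe set, but 4 were higher and 3 lower by the second, and 4 had the same call by both. Lower calls of the second probe set fell on Lsm6 (log2 -0.64), Hnrnpd (-0.65) and Snrpd3 (-0.44). Second probe sets with the same higher call as the brightest were those of Hnrnpk (0.43), Sf3a1 (0.38) and Sf3b1 (0.23).

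The largest change among the members did not appear in its second probe set. For Hnrnpa1 that probe set read -0.09, 0.15 and 0.52 in tumors and 0.00, 0.25 and 0.57 in FVB-WT livers, with nearly complete overlap (log2 -0.06, 95% interval -0.25 to 0.13, adjusted p = 0.653). Hnrnpc likewise was lower only by its brightest probe set, while the second read 0.86, 1.20 and 1.68 in tumors and 0.82, 1.07 and 1.22 in FVB-WT livers (log2 0.20, adjusted p = 0.0935). Hnrnpa2b1 ran the other way, with a second probe set at 1.20, 1.44 and 1.91 in tumors and 0.97, 1.06 and 1.27 in FVB-WT livers (log2 0.42, SE 0.08, adjusted p = 0.000947), against -0.18 and no call by the brightest. Which transcripts or paralogs each probe set reads was not tested, and by the Affymetrix naming, 12 of the 36 brightest probe sets have an ending for possible matches to more than 1 gene and 9 an ending for several transcripts of a gene.

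Probe sets of a gene were called in opposite directions for 2 of the 19 members in tumors against FVB-WT livers, 2 against ad-Liv and 0 in each of the other comparisons. For Hnrnpu the brightest (log2 0.35) and the third (0.32) were higher and the dimmest lower. That dimmest probe set read -0.91, -0.59 and 0.19 in tumors and -0.52, 0.16 and 0.51 in FVB-WT livers (log2 -0.66, SE 0.14, adjusted p = 0.00157). For Sf3b1 the brightest (0.21) and the second (0.23) were higher and the third lower, at -0.97, -0.67 and -0.50 in tumors and -0.46, -0.41 and -0.26 in FVB-WT livers (log2 -0.34, SE 0.07, adjusted p = 0.000961). Against ad-Liv the opposite calls were those of Hnrnpu (0.29 and -0.27) and Lsm3 (0.33 and -0.17). The lower Lsm3 probe set was dim, with a mean of -4.41 at the 25.5 percentile of mean level.

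**Figure D3:**
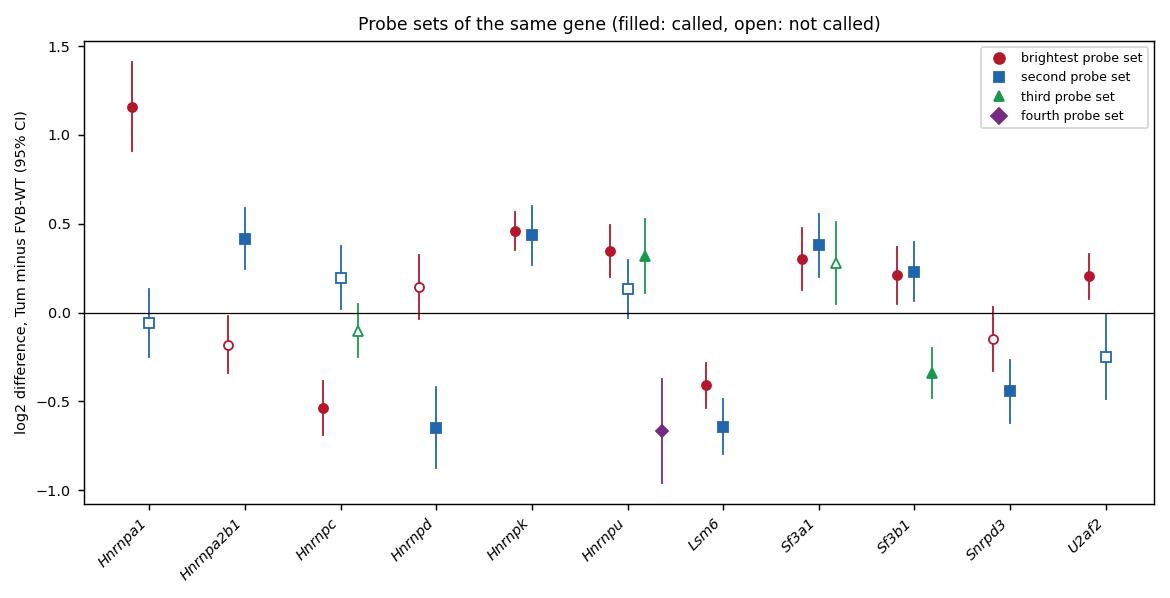
Log2 difference of tumors minus FVB-WT livers with its 95% interval (vertical axis) for every probe set of 11 genes (horizontal axis), ordered within a gene by mean intensity. Red is the brightest probe set, blue the second, green the third and purple the fourth. Filled points were called and open points were not called. Hnrnpu and Sf3b1 hold calls on both sides of 0, and the second Hnrnpa1 probe set lies at -0.06.

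Both tumors of mouse 1 differed from each other more than those of any other mouse. In 20 of 36 members the largest difference between a mouse's tumors was that of mouse 1, whose median absolute difference over the members was 0.34, against 0.06 to 0.16 in the other 6 mice. Snrpg was 0.98 in tumor 1a and 2.38 in tumor 1b, Hnrnpa1 was 1.34 and 2.53, Hnrnph1 1.96 and 2.85 and Hnrnpm 1.62 and 2.22. Hnrnpa2b1 was lower in 1b than in 1a, by 0.60. Tumor 1b was also the highest tumor for Myc (0.42) and Mki67 (1.09) and had the most lymphocyte and stellate cell marker signal: its summed lymphocyte markers were 7.58, against at most 2.88 in the other tumors, and its stellate cell markers 238, against at most 64.3. In 19 of the 36 members the SD of single tumors within a mouse exceeded the SD of the mouse means. A mean of 2 tumors varies less than 1 tumor, so these SDs are unlike measures. Neither this count nor that of mouse 1 was set against all probe sets. Leaving out tumor 1b kept 20 of 22 calls against FVB-WT livers (Sf3b1 and Hnrnpf were lost), 19 of 19 against dis-Liv and 20 of 20 against ad-Liv.

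**Figure D4:**
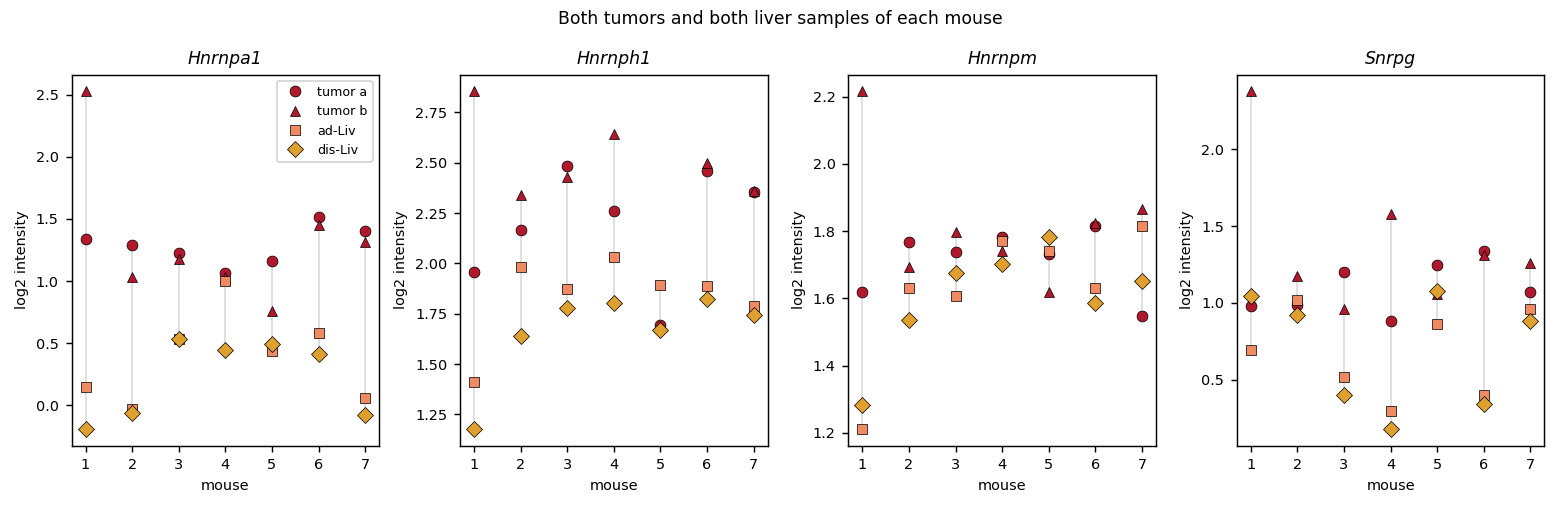
Log2 intensity (vertical axis) of Hnrnpa1, Hnrnph1, Hnrnpm and Snrpg in tumor a, tumor b, ad-Liv and dis-Liv of each of the 7 mice (horizontal axis). Each point is 1 sample. Tumor 1b lies above every other sample of the 7 mice in all 4 genes, for example at 2.38 against 0.98 in tumor 1a for Snrpg.

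Myc, whose mRNA is bound by the complex that holds HNRNPU and DHX9, and the proliferation gene Mki67 were set against 5 members across the tumor means of the 7 mice, 10 relations in all. Tumors had -1.93, -1.12 and 0.42 for Myc and -1.43, 0.01 and 1.09 for Mki67, against -2.45, -2.04 and -1.18 and -3.86, -3.60 and -3.31 in FVB-WT livers. Snrpd1 ran with Mki67 (r = 0.95, p = 0.00119, adjusted p = 0.0119; rho = 0.929, p = 0.00675, adjusted p = 0.0337, two-sided exact permutation tests). It also ran with Myc (r = 0.891, p = 0.00794, adjusted p = 0.0397; rho = 0.929, p = 0.00675, adjusted p = 0.0337, exact permutation). Without the 2 mice farthest from the median, r was 0.904 (p = 0.05) with Mki67 and 0.756 (p = 0.125) with Myc in exact permutation tests over 5 mice. Within tumors a alone, r was 0.80 with Mki67 and 0.396 with Myc.

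The other 8 relations did not pass the correction. For Hnrnpu, r was 0.843 with Myc and 0.829 with Mki67 (adjusted p = 0.058 each, exact permutation), and without the 2 farthest mice it was 0.347 and -0.06. For Hnrnpm, r was 0.756 with Myc (adjusted p = 0.103, exact permutation) and -0.03 without the 2 farthest mice, and 0.583 with Mki67 (adjusted p = 0.282, exact permutation) and -0.347 without them. For Dhx9, r was 0.257 with Myc and 0.468 with Mki67, and for Lsm2 0.04 and 0.08, with adjusted p of 0.419 or more. Without the 2 farthest mice, r was 0.336 and 0.509 for Dhx9 and 0.83 and 0.849 for Lsm2 (p = 0.108 and 0.0667, exact permutation).

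In liver outside the tumors, few members were called against FVB-WT livers. In ad-Liv, 2 members were higher and 2 lower than in FVB-WT livers, where 3.85% of all probe sets (5.98% of the brighter 21840) were called higher and 3.15% (5.9%) lower. In dis-Liv, 2 were higher and 3 lower, where 2.47% (4.5% of the brighter) were higher and 2.6% (4.69%) lower. With sample medians made equal, the split over all probe sets in ad-Liv was 911 higher and 2125 lower in place of 1680 and 1378. Both comparisons share the FVB-WT livers. Between ad-Liv and dis-Liv no member and no probe set was called by limma without pairing (0% in each direction). In that fit 1 of the 36 members had an unadjusted p under 0.05, against 9.73% of all probe sets. With the mouse as a replicate block, which uses the pairing, no member was called either. The share of all probe sets called in that paired fit is not given here. With all 6 groups in 1 fit, 3 probe sets were called higher in ad-Liv.

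Hnrnpc and Hnrnpl were lower in both kinds of liver. Hnrnpc was 1.60, 1.78 and 1.94 in ad-Liv and 1.54, 1.78 and 1.95 in dis-Liv, below every FVB-WT liver (log2 -0.39, SE 0.06, adjusted p = 0.00133 and log2 -0.37, SE 0.07, adjusted p = 0.00453). Hnrnpl in FVB-WT livers was 0.08, 0.42 and 0.54, which overlapped both (log2 -0.35, SE 0.08, adjusted p = 0.0101 in ad-Liv and log2 -0.40, SE 0.08, adjusted p = 0.00797 in dis-Liv). In tumors the same gene differed from FVB-WT livers by 0.03 (SE 0.08, adjusted p = 0.799).

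Prpf19 and Hnrnpf were higher. Prpf19 exceeded every FVB-WT liver in ad-Liv (log2 0.35, SE 0.08, adjusted p = 0.0136) and overlapped in dis-Liv (log2 0.28, SE 0.07, adjusted p = 0.0371). Hnrnpf, a relative of Hnrnph1, was 2.72, 3.18 and 3.32 in ad-Liv, 2.82, 3.16 and 3.24 in dis-Liv and 2.46, 2.77 and 3.01 in FVB-WT livers (log2 0.35, adjusted p = 0.037 and log2 0.33, adjusted p = 0.0405). Prpf8 was lower in dis-Liv (log2 -0.27, adjusted p = 0.0378). Without FVB-WT samples 5 and 7, Prpf19 (0.31 in ad-Liv and 0.24 in dis-Liv), Hnrnpf (0.31 and 0.29) and Prpf8 in dis-Liv (-0.30) were of like size but missed the threshold, as Prpf8 also did without FVB-WT samples 1 and 2 (-0.24). Without samples 1 and 2, Dhx9 became a call in ad-Liv (0.27, adjusted p = 0.043) and dis-Liv (0.29, adjusted p = 0.0246). With sample medians made equal, Prpf19 in ad-Liv (0.28, adjusted p = 0.0571), Hnrnpf in both livers (adjusted p = 0.0808 and 0.059) and Prpf8 in dis-Liv (adjusted p = 0.0645) missed it.

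In the younger mice, TRE-met livers differed from LAP-tTA livers in 5 members. Of the 36, 3 were higher and 2 lower, where 3.26% of all probe sets (5.57% of the brighter 21840) were called higher and 3.6% (6.59%) lower. Hnrnpk was 2.98, 3.02 and 3.23 in TRE-met livers and 2.72, 2.75 and 2.87 in LAP-tTA livers, without overlap (1.22-fold, log2 0.29, SE 0.06, adjusted p = 0.004). Hnrnpl was -0.06, 0.30 and 0.47 in TRE-met livers and -0.25, -0.16 and 0.13 in LAP-tTA livers (1.29-fold, log2 0.36, SE 0.09, adjusted p = 0.0117). The lowest TRE-met liver lay inside the LAP-tTA range. With fewer samples both differences were of like size but missed the threshold, Hnrnpk without TRE-met samples 1, 2, 3 and 5 (0.25, adjusted p = 0.0772) and Hnrnpl without samples 4, 6 and 7 (0.31, adjusted p = 0.0614).

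Hnrnpa1 split the TRE-met livers. It was 0.64, 0.68, 0.38 and 0.76 in TRE-met samples 1, 2, 3 and 5 and -0.16, -0.34 and -0.19 in samples 4, 6 and 7, against -0.63 to -0.06 in LAP-tTA livers (log2 0.54, SE 0.16, adjusted p = 0.0482). Only the first 4 lay above the LAP-tTA range. The same 4 samples had low Dbp at -3.17 to -1.75 against 1.82 to 2.27 in the other 3, and high S100a8, a neutrophil gene, at 0.74 to 1.89 against -3.38 to -2.45. The part of this split in the result was not tested, beyond leaving samples out: without samples 1, 2, 3 and 5 the log2 difference of Hnrnpa1 was 0.06 (adjusted p = 0.888), and without samples 4, 6 and 7 it was 0.91 (adjusted p = 1.61e-05). Without sample 1 alone it was 0.48 (adjusted p = 0.107), and with sample medians made equal 0.52 (adjusted p = 0.0608), neither a call. These subsets were chosen after their values were seen.

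Set against LAP-tTA livers, both Prpf19 and Dhx9 were lower in TRE-met livers, whereas tumors had more of both than FVB-WT livers. These directions rest on different reference livers. Means of Dhx9 were -0.15 in TRE-met, -0.12 in FVB-WT and 0.08 in LAP-tTA livers, so TRE-met and FVB-WT livers were close for this gene. For Prpf19, every TRE-met liver (highest 2.04) lay below every FVB-WT liver (lowest 2.08). TRE-met livers were not tested against FVB-WT livers. Prpf19 was 1.73, 1.82 and 2.04 in TRE-met livers and 2.0, 2.26 and 2.48 in LAP-tTA livers (1.28-fold lower, log2 -0.36, SE 0.08, adjusted p = 0.00738). It was lower by a similar amount in either subset of TRE-met livers (log2 -0.41 and -0.32). Dhx9 was -0.27, -0.15 and -0.03 in TRE-met livers and -0.17, 0.10 and 0.25 in LAP-tTA livers (log2 -0.23, SE 0.07, adjusted p = 0.0492), and it was of like size but missed the threshold in both subsets (-0.22 and -0.24) and without TRE-met sample 1 (-0.24). Counted over the members, 1 was higher and 1 lower without samples 1, 2, 3 and 5, where 1.88% of all probe sets were higher and 2.11% lower. Without samples 4, 6 and 7, 7 were higher and 1 lower, where 6.09% of all probe sets (10% of the brighter 21840) were higher and 6.29% (11.6%) lower.

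FVB-WT livers at 14 weeks had 7 members higher and 0 lower than LAP-tTA livers at 7 weeks, where 5.24% of all probe sets (9.67% of the brighter 21840) were called higher and 4.18% (6.49%) lower. Of 46 cell type markers 18 were higher and 3 lower, with 5 of 6 Kupffer cell and 4 of 6 endothelium markers higher, and their part in these results was not tested. With sample medians made equal the split over all probe sets was 2848 higher and 1059 lower in place of 2291 and 1826. Of the 7, 5 were hnRNP genes. Hnrnpd, whose protein binds AU-rich elements, was 0.27, 0.33 and 0.50 in FVB-WT livers and -0.31, -0.18 and 0.10 in LAP-tTA livers (log2 0.48, SE 0.07, adjusted p = 0.000235). Hnrnpc was 2.04 to 2.25 in FVB-WT livers and 1.53 to 1.78 in LAP-tTA livers (log2 0.45, SE 0.06, adjusted p = 5.43e-05). Neither overlapped. Hnrnpl (log2 0.48), Hnrnpa1 (0.44) and Hnrnpk (0.28), with Prpf8 (0.36) and Sf3b2 (0.23), made up the rest, and Sf3b2 missed the threshold without FVB-WT samples 5 and 7 (0.24) and without samples 1 and 2 (0.21).

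FVB-WT livers thus had the highest mean of the 6 groups for Hnrnpc and Prpf8, while LAP-tTA livers had the lowest for Hnrnpa1, Hnrnpd, Hnrnpk and Hnrnpl. Hnrnpc means were 1.61 in tumors, 1.76 in ad-Liv, 1.78 in dis-Liv, 1.90 in TRE-met livers, 1.70 in LAP-tTA livers and 2.15 in FVB-WT livers. Tumors were lowest and LAP-tTA livers next, and these groups overlapped. Tumors were not tested against LAP-tTA livers.

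The contrast of dis-Liv with FVB-WT livers and that of TRE-met with LAP-tTA livers share no sample, and their difference was tested across all probe sets, of which 7.73% were called. This test was added after values were seen. Of the 36 members, 6 were called, and the share among the brighter probe sets was not counted. Hnrnpl differed by -0.40 in dis-Liv minus FVB-WT and by 0.36 in TRE-met minus LAP-tTA (interaction -0.76, SE 0.12, adjusted p = 3.73e-05). Prpf19 differed by 0.28 and -0.36 (interaction 0.64, SE 0.11, adjusted p = 0.000106). Hnrnpc differed by -0.37 and 0.20 (interaction -0.57, SE 0.09, adjusted p = 7.35e-05). The others were Hnrnpf (0.50), Dhx9 (0.45) and Hnrnpk (-0.34). In all 6 the contrasts had opposite signs by the brightest probe set, and the genes were called for a large difference between the contrasts. Only Hnrnpl and Prpf19 were called in both contrasts. Hnrnpc and Hnrnpf were called only in dis-Liv, and Hnrnpk and Dhx9 only in TRE-met livers. Hnrnpk differed by just -0.05 in dis-Liv minus FVB-WT livers. The second probe sets did not repeat these signs. Dhx9 (-0.28 in dis-Liv minus FVB-WT livers) and Hnrnpf (-0.0854) were lower in both contrasts, and Hnrnpk was higher in both. For Hnrnpc both signs were reversed (0.21 in dis-Liv minus FVB-WT livers). Hnrnpl and Prpf19 have no second probe set. Genotype label, age and the unequal state of the TRE-met livers differ between these contrasts and cannot be told apart.

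**Figure D5:**
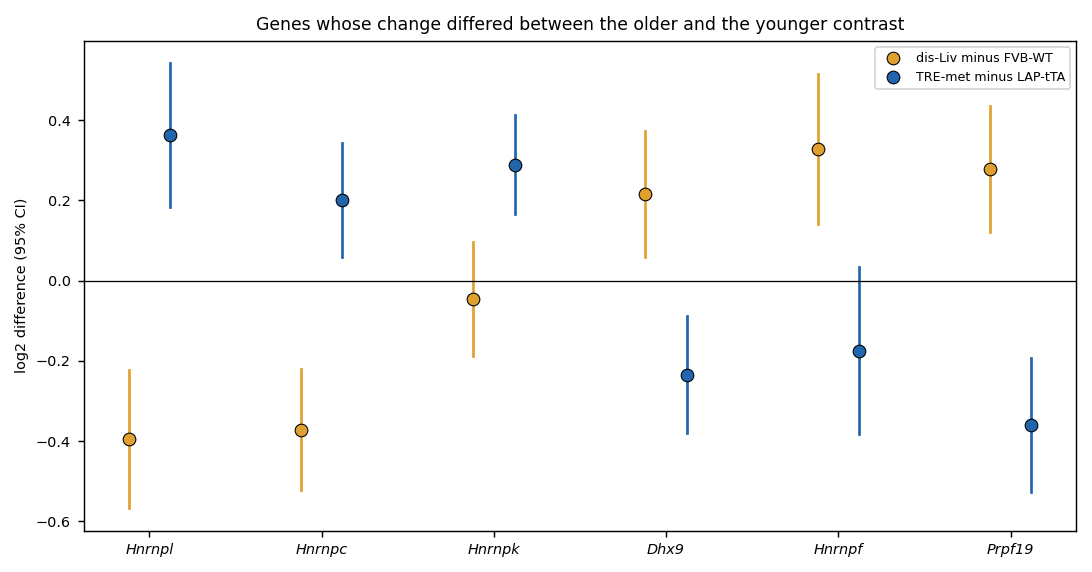
Log2 difference with its 95% interval (vertical axis) for 6 genes (horizontal axis), dis-Liv minus FVB-WT livers and TRE-met minus LAP-tTA livers. By the brightest probe set, the points lie on opposite sides of 0 for each gene, for example -0.40 and 0.36 for Hnrnpl. Only Hnrnpl and Prpf19 were called in both contrasts.

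The other genes of the pathway were counted from 7 lists of 115 genes, 108 of them on the array. In tumors, 27 were higher and 10 lower than in FVB-WT livers, 34 and 8 than in dis-Liv, and 39 and 5 than in ad-Liv. Of the 108, 103 lie among the brighter 21840 probe sets, of which 22.8%, 22.0% and 22.5% were called higher in these comparisons and 21.6%, 19.9% and 25.8% lower. The SR proteins and their kinases had 6 of 19 higher and 0 lower against FVB-WT livers, 11 and 0 against dis-Liv, and 9 and 0 against ad-Liv. Tra2a, a splicing activator related to the SR proteins, was -0.13, 0.07 and 0.66 in tumors and -1.57, -1.21 and -0.70 in FVB-WT livers, without overlap (log2 1.31, SE 0.11, adjusted p = 2.26e-07). Srsf6 (0.74) and Srsf9 (0.55) followed.

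In the list of Prp19 complex and step factors, 6 of 24 (25%) were higher and 1 lower against FVB-WT livers. The list counts in this paragraph stand beside 22.8% of the brighter 21840 probe sets called higher and 21.6% lower. Bcas2, a partner of Prpf19 in that complex, was higher by 0.83 (SE 0.08, adjusted p = 6.92e-07) and Rbm22, which contacts U6 RNA, by 0.77. Lsm8, the subunit that makes the LSm ring the nuclear one, was higher by 0.62 (SE 0.08, adjusted p = 2.24e-05), while Lsm6 was lower. Prpf4 of the U4 and U6 particle was higher by 0.53 and Prpf6 lower by 0.49. Syncrip, a further hnRNP protein of the Myc mRNA complex, was 0.21, 0.61 and 1.04 in tumors and -0.31, -0.11 and 0.02 in FVB-WT livers (log2 0.76, SE 0.08, adjusted p = 1.86e-06), and Myc itself was higher by 0.91 (SE 0.20, adjusted p = 0.00217). Of that complex, 2 of 4 genes on the list were higher and 1 lower, Igf2bp1 by 0.25 (means -4.40 in tumors and -4.15 in FVB-WT livers), and Ybx1 was not called. In the snRNP assembly list 1 of 13 was higher (Gemin8, log2 0.49) and 2 lower (Gemin4 by 0.38 and Tgs1 by 0.32).

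Outside tumors, 3 of 108 were higher and 8 lower in ad-Liv than in FVB-WT livers, 3 and 6 in dis-Liv, 0 and 0 between ad-Liv and dis-Liv, 6 and 3 in TRE-met against LAP-tTA livers, and 14 and 8 in FVB-WT against LAP-tTA livers. These counts stand beside the shares of the brighter probe sets given above for each comparison. Syncrip (log2 0.52 and 0.50) and Tra2a (0.62 in each) were higher in ad-Liv and dis-Liv than in FVB-WT livers. Both were lower in FVB-WT than in LAP-tTA livers (Syncrip by log2 -0.38, Tra2a by -0.76). Hnrnpa3, a close relative of Hnrnpa1, was higher both in TRE-met livers (log2 0.59, adjusted p = 0.000344) and in FVB-WT livers (log2 0.58, adjusted p = 9.18e-06) when set against LAP-tTA livers, and it was lower in ad-Liv (log2 -0.45) and dis-Liv (-0.36) than in FVB-WT livers.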

How the data were processed

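Total RNA of 49 mouse liver and liver tumor samples was profiled by the authors on a custom Affymetrix array. The authors normalized the arrays with RMA and deposited linear intensities between 0.0169 and 143.6. Each sample averages 1.0. Neither the RMA version nor the step to that scale is stated in the sources used here. No constant was added before log2 and no probe set was filtered out. Sample medians lay between -3.42 and -3.20. Arrays give no counts or depth, and their number limits the precision. No column of per-sample values was left unused.

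Probe sets were named through the annotation of the array: 30342 had 1 symbol, 13339 none and 0 several, and 6202 symbols were updated through the mouse gene table of assembly GRCm38.p6. The 2 tumors of each mouse were reduced to their mean. Pairs of groups were then fitted alone in R 4.3.3 by limma 3.58.1 with eBayes, two-sided. P-values were adjusted by Benjamini-Hochberg over 43681 probe sets and called below 0.05. The labels number the mice, and the p-values measure the spread between mice. Tum, ad-Liv and dis-Liv samples of 1 number came from 1 mouse and are paired by it, with correlations of their deviations of 0.12 to 0.38 for Tum and dis-Liv, 0.03 to 0.34 for Tum and ad-Liv, and 0.36 to 0.60 for ad-Liv and dis-Liv. All other groups share only numbers. Relations used exact permutation tests over 5040 pairings. Python 3.11.15 (scipy 1.17.1, numpy 2.4.6, matplotlib 3.10.9, pandas 2.3.3) ran these tests, the promoter search and the figures. Calling was tested on simulated data for tumors against FVB-WT livers with 200 changed probe sets among 43681. There a log2 change of 0.5 was called for 70.1% of its probe sets and a log2 change of 0.25 for 2.99%. In the measured data, 13.4% of all probe sets were called higher and 15.8% lower in that comparison. The adjusted threshold is stricter when few probe sets change, so the recovered shares do not give the power of the fits above.

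The members, the other gene lists and the comparisons were chosen with earlier results of these data known. Named were Hnrnpm, Hnrnpu, Lsm2, Snrpd1, Dhx9, Myc and Mki67, up to 6 called members in each direction with the largest change in a comparison, and up to 3 called genes of each other list with the smallest p. Further members, second probe sets, Hnrnpa3, Alb, Dbp, S100a8 and Cpa1 were named after their values were seen. Alternatives changed the threshold, the filter, the normalization, the samples fitted, the block, the weights and the probe set.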

Additional observations from a re-analysis of the deposited data

Results flagged for a closer look

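Single samples stood apart in their group in 14 of 180 group and gene combinations tested, by the gap to the next sample relative to the range. Chance marks about 5% of groups. Mouse 1 was the lowest of its group for Hnrnph1 in ad-Liv (1.41, next 1.79) and in dis-Liv (1.18, next 1.64) and for Hnrnpm in ad-Liv (1.21, next 1.61). Mouse 7 gave the lowest Hnrnpf (2.72) and the highest Hnrnpl (0.21) and Snrpd3 (1.47) in ad-Liv and the lowest Hnrnpd in dis-Liv (-0.0827). Mouse 5 gave the highest Lsm7 in dis-Liv (1.55). In the TRE-met livers, Sf3a2 was lowest in sample 1 (0.86) and Sf3b1 highest in sample 4 (2.39). In the FVB-WT livers, sample 1 had the highest Hnrnpd (0.50) and the lowest Lsm4 (0.65) and sample 4 the highest Snrpa (1.36). Hnrnpk was highest in LAP-tTA sample 1 (2.87).

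The change of 6 members in dis-Liv against FVB-WT livers differed from that in TRE-met against LAP-tTA livers by an interaction term in limma. The differences of the 2 changes were 0.45 for Dhx9 (adjusted p = 0.00248), -0.57 for Hnrnpc (adjusted p = 7.35e-05), 0.50 for Hnrnpf (adjusted p = 0.0179), -0.34 for Hnrnpk (adjusted p = 0.00718), -0.76 for Hnrnpl (adjusted p = 3.73e-05) and 0.64 for Prpf19 (adjusted p = 0.000106).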

How the results depend on the processing

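Among the genes named, 938 of the values recomputed under an alternative kept their direction and their side of the threshold, 63 lost the call, 3 gained it and 29 changed sign. Reading the second probe set moved most: members higher were 9 (tumors against FVB-WT livers) and 11 (against ad-Liv), members lower 5 against dis-Liv and 4 against ad-Liv, and 1 higher in ad-Liv, dis-Liv and TRE-met livers, with 1 lower in ad-Liv and TRE-met livers. Signs turned with it for Hnrnpa1 (-0.0605 and -0.108 in tumors against FVB-WT livers and ad-Liv, -0.00777 in TRE-met livers), Hnrnpc (0.20 in tumors, 0.16 in ad-Liv and 0.21 in dis-Liv against FVB-WT livers, -0.14 in FVB-WT against LAP-tTA livers), Hnrnpf (-0.0766 in ad-Liv and -0.0854 in dis-Liv), Hnrnpm (-0.102, -0.0921 and -0.0572 in tumors against FVB-WT livers, dis-Liv and ad-Liv, -0.0446 in ad-Liv and -0.00968 in dis-Liv against FVB-WT livers, -0.0349 between ad-Liv and dis-Liv, -0.0466 in TRE-met livers), Dhx9 (-0.28 in dis-Liv, 0.28 between ad-Liv and dis-Liv) and Hnrnpu (-0.0956 in TRE-met livers). At an adjusted p under 0.01, 0 members were higher in ad-Liv and dis-Liv and 1 in TRE-met livers, and 1 was lower in ad-Liv, in TRE-met livers and in tumors against ad-Liv. With equal medians, 0 members were higher and 4 lower in ad-Liv, 1 higher in dis-Liv and 1 lower in tumors against ad-Liv, the calls of Hnrnpa1 in TRE-met livers and Sf3a2 in tumors against ad-Liv (-0.104) were lost, and signs turned for Hnrnpu (-0.00599) and Snrpd1 (-0.0464) in ad-Liv, Lsm2 in tumors against ad-Liv (0.0548) and between ad-Liv and dis-Liv (-0.0622), Hnrnpm between ad-Liv and dis-Liv (-0.0399) and Snrpd1 in FVB-WT against LAP-tTA livers (0.0383). Quantile normalization gave 5 lower in tumors against ad-Liv and 1 lower in TRE-met livers and in FVB-WT against LAP-tTA livers, with Dhx9 at 0.0041 between ad-Liv and dis-Liv. The filter on dim probe sets gave 4 lower in ad-Liv and 5 higher in TRE-met livers. All 6 groups in 1 fit gave 1 higher in dis-Liv and 4 lower in tumors against ad-Liv. Array weights gave 1 lower in TRE-met livers, with Lsm2 at 0.00262 in tumors against ad-Liv and -0.0293 between ad-Liv and dis-Liv. Second probe sets of Hnrnpm and Dhx9 were dimmer than the brightest of any member, at the 43.8 and 56.1 percentile of mean level. The cause of these changes was not tested.

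With the replicate number as a block, 1 member was higher in ad-Liv and 0 in dis-Liv against FVB-WT livers, and 1 was lower in TRE-met livers. These groups share only numbers. The block kept 19 of 22 calls in tumors against FVB-WT livers and 6 of 7 in FVB-WT against LAP-tTA livers. Alternatives chosen after seeing the data left samples out. Without FVB-WT samples 5 and 7, 0 members were higher in ad-Liv and dis-Liv. Without TRE-met samples 1, 2, 3 and 5, 1 was higher and 1 lower, with Hnrnpu at -0.010, and without samples 4, 6 and 7, 7 were higher and 1 lower. Without TRE-met sample 1 alone, 1 was lower.

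Of the relations across mice, without the 2 farthest mice r was 0.756 for Snrpd1 with Myc, 0.904 for Snrpd1 with Mki67, -0.0289 and -0.347 for Hnrnpm with Myc and Mki67, 0.83 and 0.849 for Lsm2 (from 0.04 and 0.08), and -0.0638 for Hnrnpu with Mki67. With tumor a alone, r was 0.396 and 0.80 for Snrpd1 with Myc and Mki67, -0.21 and -0.53 for Hnrnpm, and -0.0715 for Lsm2 with Mki67. With tumor b alone, which includes tumor 1b, r was 0.981 for Hnrnpm with Myc, 0.95 for Hnrnpu with Mki67, 0.794 for Snrpd1 with Mki67 and -0.35 for Dhx9 with Myc. Arrays give no depth, so the limits here are the number of mice and the choice of probe set.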

Other observations

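Of the 8 minor spliceosome genes, the particle that removes a rare class of introns, Snrnp25 had larger differences than any other listed gene in the comparisons with LAP-tTA livers. It was 0.19, 0.49 and 0.95 in tumors (lowest, median and highest), 0.44, 0.54 and 0.63 in ad-Liv, 0.53, 0.73 and 0.90 in dis-Liv, -0.97, -0.80 and -0.52 in TRE-met livers, -0.79, -0.74 and -0.26 in FVB-WT livers and 1.78, 1.81 and 1.96 in LAP-tTA livers. LAP-tTA livers lay above all samples of the mice labelled with both transgenes, and these above all FVB-WT and TRE-met livers, with no overlap between the 3 sets. In limma the log2 difference was -2.63 in TRE-met against LAP-tTA livers (SE 0.07, adjusted p = 8.02e-15), -2.50 in FVB-WT against LAP-tTA livers (SE 0.08, adjusted p = 1.07e-13), 1.18 in tumors against FVB-WT livers (SE 0.09, adjusted p = 3.33e-08) and -0.22 in tumors against dis-Liv (SE 0.07, adjusted p = 0.0323). The other minor spliceosome genes called in tumors against FVB-WT livers were Snrnp48 (log2 -0.55) and Zmat5 (-0.41), both lower.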
